A study of Mus musculus with 12 samples.

Results

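The Notch receptors Notch1, Notch2 and Notch3, the ligands Jag1, Dll1 and Dll3, and the transcriptional repressors Hes1, Hes5, Hey1 and Hey2 were described in primary mouse oligodendrocyte (OL) cultures with and without interference of Egr2. These 10 genes were chosen by symbol, as well-known receptors, ligands and targets of the Notch pathway, and all 10 were found among the 56860 named genes of the count table and passed the filter on low counts. The cells were O4+ immature OLs that the study isolated from newborn C57BL/6J mouse cortex, expanded with PDGF-AA and matured in insulin, triiodothyronine and ciliary neurotrophic factor. The labels give the medial prefrontal cortex as the tissue. The siNC group (6 libraries) received a scrambled siRNA and the siEgr2 group (6 libraries) an siRNA against Egr2, a zinc finger transcription factor, and RNA was sequenced 48 h later. The reagent is named siRNA in some places of the methods and plasmid in others. The sources do not say whether the libraries came from separate cultures, so all p-values below measure the spread between libraries.

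Notch is a receptor that is read out by cutting. A Delta-like or Jagged ligand on a neighboring cell pulls on the receptor, metalloproteases and gamma-secretase cleave it, and the freed intracellular domain binds the DNA-binding protein Rbpj in the nucleus and switches on Hes and Hey genes, which encode basic helix-loop-helix repressors. In the oligodendrocyte lineage Notch signaling is known for holding precursors back from maturation, and in the cortex it also favors the astrocyte fate. Receptors and ligands are spread over the cell types of the brain, with Notch3 best known from pericytes and vascular smooth muscle and Dll3 from the oligodendrocyte precursor.

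Total counts were 28682946 to 39383014 in the siNC libraries and 8034251 to 16683677 in the siEgr2 libraries. Reads of Rn18s-rs5, an 18S ribosomal RNA gene, made up 0.142% to 1.05% of the counts in siNC and 10.5% to 16.5% in siEgr2. The 10 structural RNA genes examined were all called higher in siEgr2, with a median log2 fold change of 3.95. The siEgr2 libraries thus differ from siNC in depth and in structural RNA as well as in treatment, and their parts cannot be told apart. Egr2 itself was measured at 3.89 to 7.06 CPM (normalized counts per 1e6 counts, scaled by TMM) in siNC, with a median of 5.19, and at 2.22 to 4.86 CPM in siEgr2, with a median of 3.93. The groups overlapped, and Egr2 was not called (log2 fold change -0.51 with a standard error, SE, of 0.21, adjusted p = 0.0981 by the quasi-likelihood test of edgeR). An exact two-sided permutation test of Egr2 alone gave p = 0.0433. The 8 oligodendrocyte markers examined, Mbp and Mog among them, were all expressed, with a summed level of 7780 to 8848 CPM in siNC, and the 8 astrocyte markers examined reached 8308 to 9006 CPM in the same libraries. The cultures thus held astrocyte RNA beside that of the labelled cell type, and in bulk RNA fewer cells of a type cannot be told apart from less RNA per cell.

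Between the groups, 2 of the 3 receptors and 1 of the 4 repressors were called lower in siEgr2, namely Notch3, Notch2 and Hes1. Calls required both a log2 fold change beyond 0.5 in either direction and an adjusted p below 0.05, which are the thresholds of the study. By this rule 3 of the 10 genes were called lower, against 5.08% of the 16600 genes tested, and 0 were called higher, against 2.63%. In either direction 7.72% of all tested genes were called. The count of 0 higher genes was from edgeR, and DESeq2 and limma-voom also gave 0, while 2 genes, Jag1 and Dll3, were higher at an unadjusted p under 0.05. The adjusted p alone was passed by 4 of the 10, with Hey1 as the addition, against 19.9% of all tested genes. All libraries of one group lay on one side of the other for 3 of the 10 genes, Notch2, Notch3 and Hey1, against 11.2% of all tested genes. The median log2 fold change of the 10 genes was -0.15, beside 0.0046 for all tested genes. Over all genes 437 calls were higher and 844 lower, and with libraries scaled by their totals only, where the median of all genes shifts to -0.18, these were 237 and 1737, with 5 of the 10 genes lower.

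**Figure D1:**
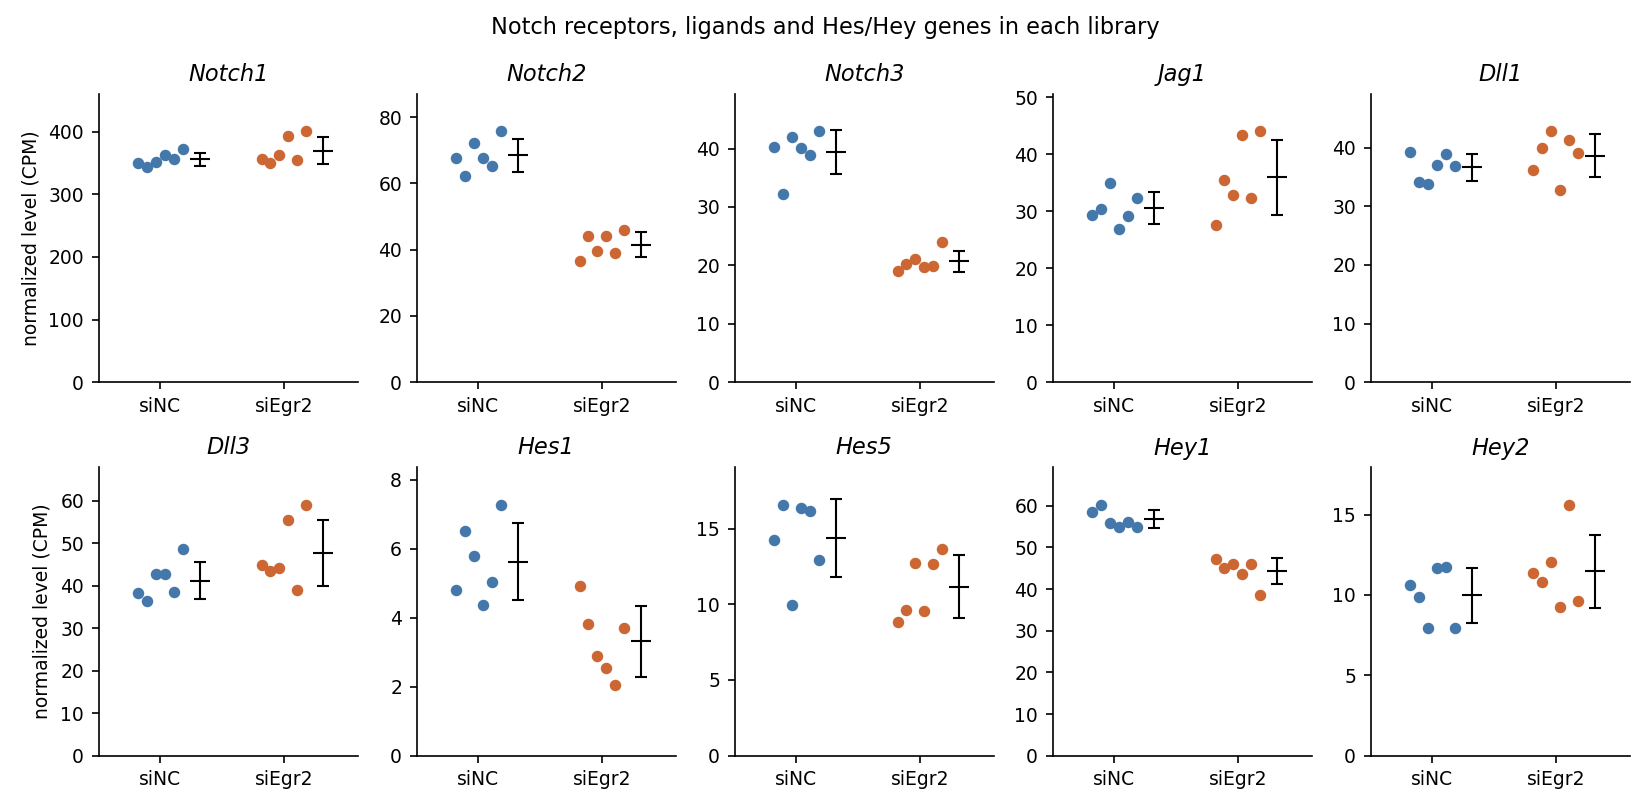
Normalized level (CPM, linear axis from 0) of the 10 Notch genes in each of the 6 siNC and 6 siEgr2 libraries, with each point a library and the black mark the mean with its SD. For Notch2, Notch3 and Hey1 every siEgr2 point lies below every siNC point, while Notch1 stays between 343 and 401 CPM in all 12 libraries.

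Notch1 was the leading receptor of the cultures and was not called in either direction. Its gene lies on chromosome 2 of GRCm38 from 26457903 to 26516663, on the minus strand. Notch1 was measured at 350, 343, 352, 363, 357 and 372 CPM in siNC libraries 1 to 6 and at 357, 350, 363, 394, 355 and 401 CPM in siEgr2 libraries 1 to 6. The groups overlapped, with means of 356 ± 10.4 and 370 ± 21.8 CPM (SD, n = 6 libraries each). The log2 fold change of Notch1 was 0.054 with a 95% interval of -0.030 to 0.14 (edgeR, adjusted p = 0.377), so a change of the size seen for the other receptors lies outside the interval. Its sign depended on the scaling and the libraries, with -0.13 (edgeR, adjusted p = 0.0107) when libraries were scaled by their totals only, where the median of all genes is -0.18, and -0.011 without siEgr2 libraries 4 and 6. Notch1 also had the smallest relative spread of the 10 genes among siNC libraries, 2.93% of its mean.

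Notch2, a receptor of astrocytes and precursor cells, lies on chromosome 3 from 98013527 to 98150361. It was measured at 67.5, 62.2, 72.3, 67.8, 65.2 and 75.8 CPM in siNC libraries 1 to 6, and at 36.4, 44.0, 39.6, 44.1, 38.9 and 45.9 CPM in the siEgr2 libraries. The highest siEgr2 library therefore stood well under the lowest siNC library. Notch2 fell from a mean of 68.5 ± 4.89 CPM to 41.5 ± 3.70 CPM (SD, n = 6 each), and its log2 fold change was -0.72 (SE 0.067, adjusted p = 1.42e-06 by edgeR). This is a fitted change of -39.4%.

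Notch3 showed the largest fall of the 10 genes. This receptor, whose gene lies on chromosome 17 from 32120820 to 32166852 on the minus strand, was measured at 40.3, 32.2, 41.9, 40.04, 38.97 and 43.0 CPM in siNC libraries 1 to 6. In siEgr2 libraries 1 to 6 it was 19.1, 20.3, 21.1, 19.7, 19.8 and 24.1 CPM. Library 2 was the low one of the siNC group, and even it stood above every siEgr2 library. The log2 fold change of Notch3 was -0.93 (SE 0.080, adjusted p = 7.03e-07 by edgeR), with means of 39.4 ± 3.81 and 20.7 ± 1.79 CPM (SD, n = 6). It was -0.98 without the low siNC library 2.

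The bases before the annotated starts of the receptor genes that fell are shown because Egr proteins are known to bind GC-rich sites, written here as GCGGGGGCG and GCGTGGGCG. Each line gives the 250 bases upstream of the RefSeq start, 5′ to 3′ on the strand of the gene (GRCm38.p6), with matches in capitals. The strand was checked against GENCODE M21 transcripts, by 12 shared bases at the end of the window for Notch3, whose RefSeq start lies before the GENCODE start. The Notch3 window is chr17:32166891-32167140 on the minus strand and the Notch2 window chr3:98013288-98013537 on the plus strand.
Notch3: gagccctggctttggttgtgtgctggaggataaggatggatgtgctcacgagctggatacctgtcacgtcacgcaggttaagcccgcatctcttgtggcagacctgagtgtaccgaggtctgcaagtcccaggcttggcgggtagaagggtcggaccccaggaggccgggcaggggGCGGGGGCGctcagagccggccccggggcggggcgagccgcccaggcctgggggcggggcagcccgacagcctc
Notch2: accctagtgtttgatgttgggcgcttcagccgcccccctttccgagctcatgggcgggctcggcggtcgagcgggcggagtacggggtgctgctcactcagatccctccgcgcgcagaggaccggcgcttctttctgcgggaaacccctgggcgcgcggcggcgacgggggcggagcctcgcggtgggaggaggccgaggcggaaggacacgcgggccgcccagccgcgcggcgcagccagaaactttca
Notch3 held 1 match to GCGGGGGCG, whose first base lies 74 bases before the start, and Notch2 held none. Both strands were searched in windows that also take in the 50 bases after the start. Of all 32851 such windows in RefSeq, 2.91% held GCGGGGGCG and 0.612% held GCGTGGGCG. The remaining 6 of the 8 Notch genes with a window, Notch1, Jag1, Dll1, Dll3, Hes5 and Hey2, held neither. A match of letters is a description of the sequence and no sign of binding.

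The mix of receptor RNA differed between the groups. The ratio of Notch1 to Notch2, which does not depend on how the libraries are scaled, was 4.87 to 5.52 in siNC, with a median of 5.27. In siEgr2 it was 7.95 to 9.80, with a median of 9.02, and the groups did not overlap. Per kilobase of exon (GENCODE M21), Notch1 made up a median of 69.0% of the summed level of the 3 receptors in siNC and 80.3% in siEgr2. The median share of Notch2 was 17.3% and 11.8%, and that of Notch3 13.6% and 7.98%, in the same order. Notch4, the endothelial receptor outside the 10 genes, was close to the limit of detection, with 15 to 38 counts in the siNC libraries and 3 to 15 counts in the siEgr2 libraries.

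**Figure D2:**
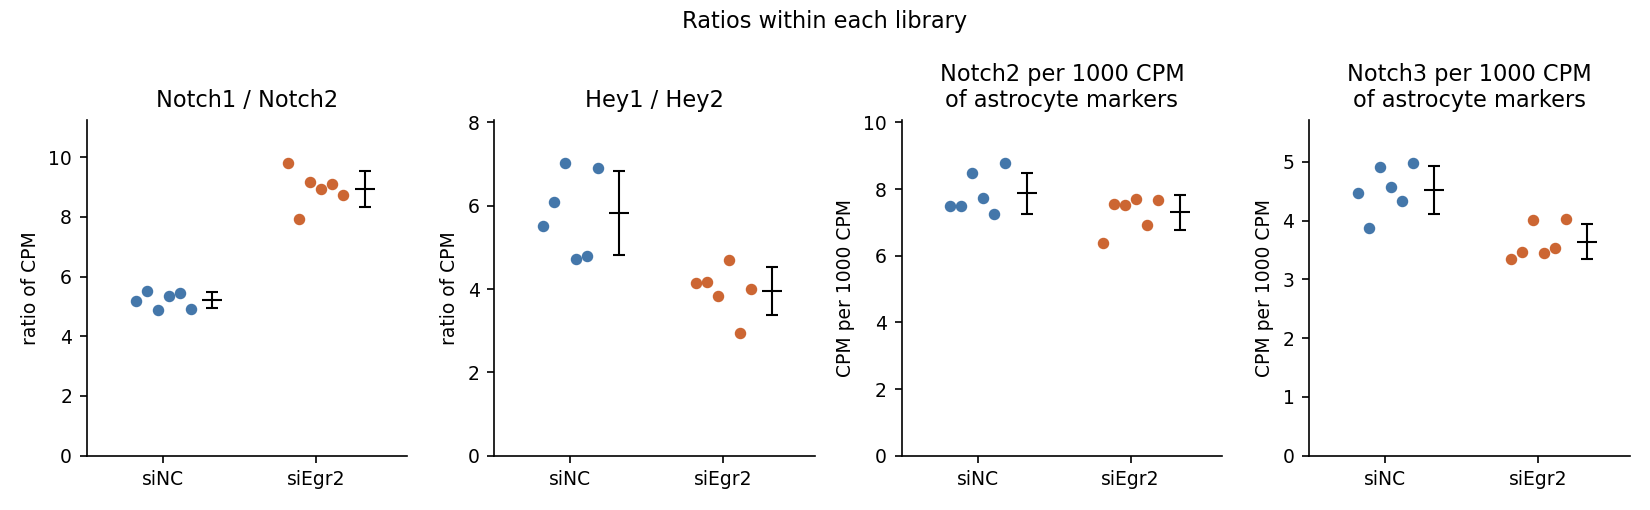
Ratios taken within each library (linear axes from 0), with each point a library and the black mark the mean with its SD. The ratio of Notch1 to Notch2 is at least 7.95 in all 6 siEgr2 libraries and at most 5.52 in all 6 siNC libraries. The ratio of Hey1 to Hey2 is lower in every siEgr2 library. The levels of Notch2 and Notch3 per 1000 CPM of astrocyte markers overlap between the groups, for Notch3 through siNC library 2 only.

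The ligands did not pass the test in either direction. Dll1, a Delta-like ligand that activates the receptor from the neighboring cell, was measured at 39.3, 34.1, 33.8, 37.0, 38.8 and 36.9 CPM in siNC libraries 1 to 6 and at 36.2, 39.9, 42.8, 32.7, 41.2 and 39.1 CPM in siEgr2 libraries 1 to 6. The siEgr2 values spread to both sides of the siNC values. The log2 fold change of Dll1 was 0.075 with a 95% interval of -0.073 to 0.22 (edgeR, adjusted p = 0.502).

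Dll3, a divergent Delta-like protein that acts inside the cell and marks precursors, was measured at 38.2, 36.3, 42.6, 42.8, 38.6 and 48.5 CPM in siNC libraries 1 to 6. In siEgr2 it was 44.9, 43.5, 44.2, 55.5, 38.9 and 59.1 CPM. Jag1, the Jagged ligand of the cultures, was measured at 29.3, 30.4, 35.0, 26.8, 29.2 and 32.4 CPM in siNC and at 27.6, 35.4, 32.9, 43.4, 32.3 and 44.1 CPM in siEgr2. For both ligands siEgr2 libraries 4 and 6 stood above all others, and the remaining siEgr2 libraries lay within the siNC range or, for Jag1 in library 2, just above it. These are also the libraries with the highest Rn18s-rs5 share, 16.3% and 16.5%.

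The log2 fold change of Dll3 was 0.21 with a 95% interval of 0.0019 to 0.42 (edgeR, adjusted p = 0.152), and that of Jag1 was 0.24 with an interval of 0.011 to 0.46 (edgeR, adjusted p = 0.137). Leaving out libraries 4 and 6, which was decided after seeing the data, gave values of 0.051 for Dll3 and 0.060 for Jag1. Among the canonical ligands outside the 10 genes, Jag2 was measured at 2.27 CPM in siNC and 2.02 CPM in siEgr2 on average. Dll4, the ligand of sprouting vessels, had 2 to 12 counts in each siNC library and 0 counts in all siEgr2 libraries, which allows a level of up to 0.0401 CPM over the siEgr2 group (3 counts, counting error only). It did not pass the filter on low counts, and with no such filter it was called lower (edgeR, adjusted p = 0.0260).

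Hes1, the repressor that Notch induces in most cell types, had the lowest counts of the 10 genes and was the only repressor called. It was measured at 4.80, 6.50, 5.80, 4.36, 5.04 and 7.28 CPM in siNC libraries 1 to 6. In siEgr2 libraries 1 to 6 it was 4.91, 3.83, 2.90, 2.54, 2.05 and 3.70 CPM. Only siEgr2 library 1 reached into the siNC range. Hes1 fell from a mean of 5.63 ± 1.11 CPM to 3.32 ± 1.03 CPM (SD, n = 6 each), and its log2 fold change was -0.75 (SE 0.20, adjusted p = 0.0149 by edgeR). Only 149 to 304 counts stand behind each siNC value and 16 to 73 behind each siEgr2 value, and without siEgr2 libraries 4 and 6 the log2 fold change was -0.70 with an adjusted p from edgeR of 0.0513, just above the threshold.

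Hey1 was the repressor at the highest level and the most even one. Its level was 58.6, 60.3, 55.8, 54.9, 56.1 and 55.0 CPM in siNC libraries 1 to 6 and 47.1, 45.2, 46.1, 43.5, 46.0 and 38.5 CPM in siEgr2 libraries 1 to 6. No siEgr2 library reached the siNC range. The log2 fold change was -0.35 (SE 0.056, adjusted p = 2.53e-04 by edgeR), past the adjusted p but short of the fold threshold, so that Hey1 was lower in siEgr2 without being called. Its 95% interval was -0.47 to -0.24.

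Hes5, the Notch target best known from neural stem cells and the astrocyte lineage, was measured at 14.3, 16.6, 9.96, 16.4, 16.2 and 12.95 CPM in siNC libraries 1 to 6. In siEgr2 it was 8.81, 9.60, 12.7, 9.57, 12.7 and 13.6 CPM. The groups overlapped, with siNC library 3 at the level of the lower siEgr2 libraries. The log2 fold change of Hes5 was -0.37 with a 95% interval of -0.68 to -0.064 (edgeR, adjusted p = 0.0856). Hey2, the other Hey gene, was measured at 10.6, 9.89, 7.96, 11.7, 11.7 and 7.97 CPM in siNC and at 11.4, 10.8, 12.05, 9.27, 15.6 and 9.65 CPM in siEgr2, with a log2 fold change of 0.20 and an interval of -0.11 to 0.50 (edgeR, adjusted p = 0.376). Without siEgr2 library 5, the highest, the value for Hey2 was 0.093. The intervals of Hes5 and Hey2 are wide enough to hold changes of up to 0.68 and 0.50, so these results do not show that the genes held their level.

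Hey1 stood lower relative to Hey2 in the siEgr2 libraries. Their ratio, taken within each library and given with no test, was 5.51, 6.09, 7.02, 4.71, 4.79 and 6.90 in siNC libraries 1 to 6 and 4.15, 4.17, 3.83, 4.69, 2.94 and 3.99 in siEgr2 libraries 1 to 6. The ratios did not overlap, although siEgr2 library 4 nearly met siNC library 4.

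The upstream bases of Hes5 are shown because it is a known direct target of Notch. The capitals mark matches to the core site of Rbpj, GTGGGAA, on either strand. The 250 bases before the RefSeq start are chr4:154960673-154960922 of GRCm38.p6, plus strand, 5′ to 3′.
Hes5: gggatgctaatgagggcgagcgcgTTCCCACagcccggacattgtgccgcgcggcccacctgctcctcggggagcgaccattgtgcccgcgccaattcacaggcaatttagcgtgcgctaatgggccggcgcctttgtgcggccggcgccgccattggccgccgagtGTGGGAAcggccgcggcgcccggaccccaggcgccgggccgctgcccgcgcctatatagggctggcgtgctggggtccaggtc
The window held 2 matches, the first on the opposite strand from 226 bases before the start and the second on the strand of the gene from 83 bases before it. Hey2 held 2 matches as well, 1 from 207 bases before its start and 1 across the start. The other 6 Notch genes with a window held none, and GTGGGAA occurred in 6.38% of all RefSeq windows of this length. Neither Hes5 nor Hey2 was called. Lfng, a pathway gene described later, held 1 match from 109 bases before its start.

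Ranked by level per kilobase of exon in the siNC group, Notch1 came first with 25.0 ± 0.733 CPM per kb (SD, n = 6), followed by Hey1 (17.4 ± 0.664 CPM per kb), Dll3 (14.4 ± 1.55 CPM per kb), Hes5 (10.6 ± 1.90 CPM per kb) and Dll1 (8.69 ± 0.546 CPM per kb). Notch2 (6.35 ± 0.453 CPM per kb), Jag1 (5.24 ± 0.485 CPM per kb), Notch3 (4.87 ± 0.471 CPM per kb), Hes1 (2.76 ± 0.545 CPM per kb) and Hey2 (2.17 ± 0.369 CPM per kb) came after them. The siNC ranges of these neighbors overlapped for Hey1 and Dll3, Hes5 and Dll1, Notch2 and Jag1, Jag1 and Notch3, and Hes1 and Hey2, and did not overlap for the others. In siEgr2 Notch2 stood at 3.85 ± 0.343 CPM per kb and Notch3 at 2.56 ± 0.221 CPM per kb, both below Jag1 at 6.17 ± 1.12 CPM per kb, whereas in siNC Notch2 ranked above Jag1. Dll3 made up a median of 50.3% of the summed ligand level per kb in siNC and 51.9% in siEgr2, and Hey1 a median of 52.3% and 53.2% of the 4 repressors.

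**Figure D3:**
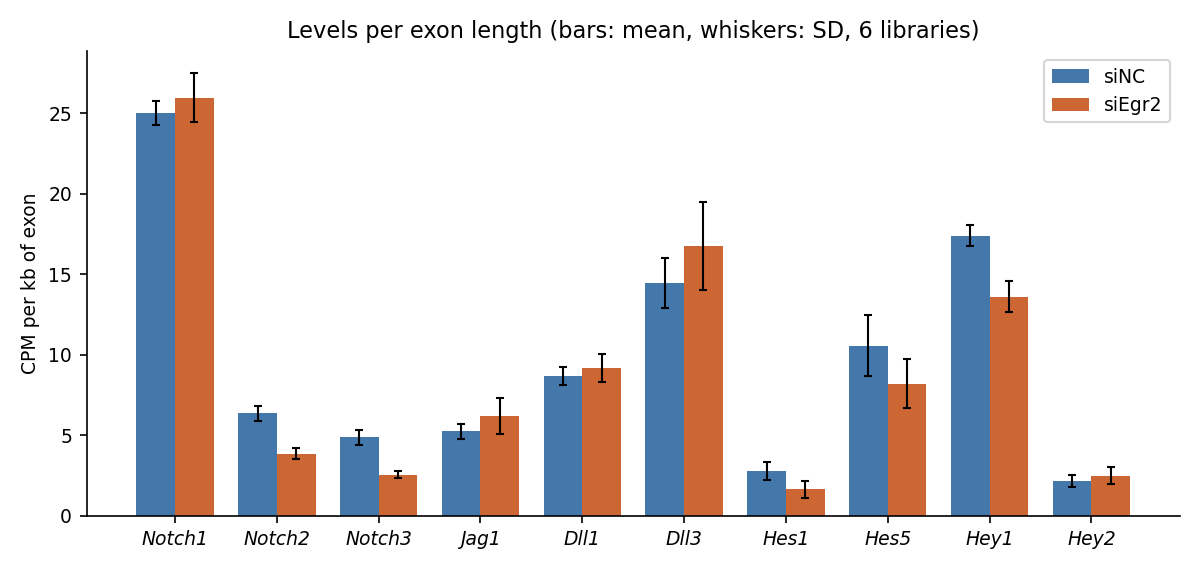
Level of each gene per kilobase of exon (CPM per kb, linear axis from 0) in the siNC and siEgr2 groups, as the mean of 6 libraries with its SD. Notch1 is the highest in both groups at 25.0 and 26.0 CPM per kb, and Notch2, Notch3, Hes1, Hes5 and Hey1 have lower siEgr2 than siNC means.

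Beyond the 10 genes, 53 further genes of the pathway were listed by role, and 50 of them had enough counts to be tested. Of these 50, 1 was called lower and 0 were called higher by edgeR, DESeq2 and limma-voom alike, against the 5.08% and 2.63% of all tested genes. The adjusted p alone was passed by 8 of them in edgeR, against the 19.9% of all tested genes. At an unadjusted p under 0.05, 12 were lower and 3 higher. The share of all tested genes at that cut is not given here, so this count is not read as a result about the pathway. The same holds for every other count at an unadjusted p. Their median log2 fold change was -0.014. The gene that was called is Lfng, which encodes Lunatic fringe, a glycosyltransferase that adds sugars to the receptor and changes which ligands it answers to. Lfng was measured at 61.3 to 81.6 CPM in siNC, with a median of 74.7, and at 35.8 to 52.9 CPM in siEgr2, with a median of 42.6, without overlap. It fell by 0.71 on the log2 scale (SE 0.10, adjusted p = 1.39e-04 by edgeR). The other fringe genes Rfng (0.062) and Mfng (0.055) had log2 fold changes near 0 and were not called.

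Among the genes that only passed the adjusted p, named after their values were seen, Dtx4 (log2 fold change -0.48), a ubiquitin ligase of the Deltex family, Fbxw7 (-0.47), which targets the intracellular domain for breakdown, and Numbl (-0.22), a relative of the Notch inhibitor Numb, were lower. Nrarp, a feedback inhibitor that Notch itself induces, was lower too (-0.36, from 15.5 to 11.99 CPM on average), and so was the co-repressor Cir1 (-0.37). The co-repressor Tle2 (0.38) and the ubiquitin ligase Neurl1a (0.42) were higher. In limma-voom the adjusted p was past the threshold for Dtx4, Cir1, Tle2 and Neurl1a, and was 0.0660 for Fbxw7, 0.0640 for Nrarp and 0.0587 for Numbl.

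The core machinery of cleavage and transcription was expressed, from Maml3 at 2.51 CPM to Adam10 in the siNC means, and no gene of it was called. Adam10, the protease of the first ligand-induced cut, averaged 169 CPM in siNC, where 1 library stood at 93.0 CPM, and 171 CPM in siEgr2. Of the 9 cleavage genes, 0 passed the adjusted p in edgeR, 1 in DESeq2 and 1 in limma-voom, while 3 were lower at an unadjusted p under 0.05. Rbpj, the DNA-binding partner of the cleaved receptor, averaged 111 CPM in siNC and 106 CPM in siEgr2. Of the 5 nuclear complex genes, 0 passed the adjusted p by any of the 3 tools, with 1 lower and 1 higher at an unadjusted p under 0.05 in edgeR. Of the lists without a called gene, genes at the highest level of their list were Jag2, Dner (122 and 125 CPM), Adam10, Rbpj, the ligand-side ubiquitin ligase Mib1 (159 and 156 CPM) and the neural factor Hes6 (25.4 and 27.8 CPM), each given as siNC and siEgr2 means. The siEgr2 libraries of Mib1 ran from 89.2 to 195 CPM, so its means do not show that it held its level.

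**Figure D4:**
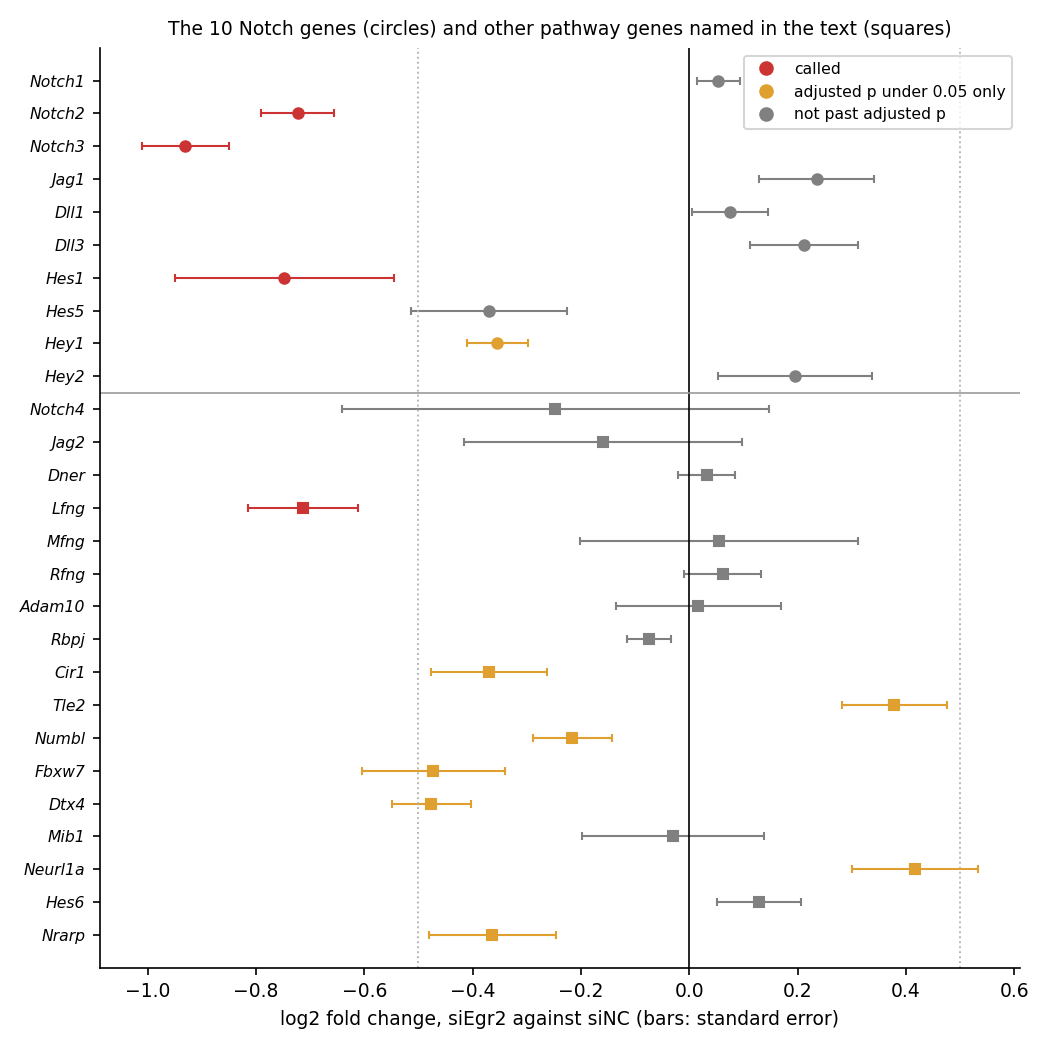
Log2 fold change of siEgr2 against siNC with its SE (horizontal bars) for the 10 Notch genes (circles) and the other pathway genes named in the text (squares), with dotted lines at the fold threshold of 0.5. Red marks the called genes Notch2, Notch3, Hes1 and Lfng, orange the genes that passed the adjusted p only, and gray the genes that did not pass it.

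The astrocyte markers moved in the direction of the Notch genes that fell. Of the 8 astrocyte markers, 6 were called lower and 7 passed the adjusted p, and the summed level of the list was 5260 to 5971 CPM in siEgr2 against 8308 to 9006 CPM in siNC. Gfap alone averaged 4777 CPM of that sum in siNC and 3242 CPM in siEgr2, so the sum rests mostly on this gene. The median log2 fold change of the 8 markers was -0.64. The log2 fold changes of the 8 ran from -0.85 for the glutamate transporter gene Slc1a3 to -0.34 for Aldoc. Aqp4 was at -0.80 and Gfap at -0.56. Beside them stood -0.72 for Notch2 and -0.75 for Hes1, while Notch3 at -0.93 fell further than any of the 8 markers. For Gfap the study reported the opposite direction, a significant increase by qPCR in primary OLs with Egr2 interference. Of the 8 oligodendrocyte markers, which stand for the labelled cell type, 0 were called by any of the 3 tools, and their summed level was 7277 to 7594 CPM in siEgr2, below all siNC libraries, with a median log2 fold change of -0.18. The adjusted p alone was passed by 3 of them in edgeR, 5 in DESeq2 and 4 in limma-voom, all lower, and 6 were lower at an unadjusted p under 0.05 in edgeR. Of the 6 oligodendrocyte precursor markers, 2 were called higher, Pdgfra and Cspg4, with a median log2 fold change of 0.46 over the list and a summed level of 2832 to 3232 CPM in siNC and 3588 to 3860 CPM in siEgr2. Among the 8 pericyte and fibroblast markers, Pdgfrb (-0.56) and Rgs5 (-0.78) were called lower, the summed level ran from 590 to 1007 CPM in siNC and from 597 to 741 CPM in siEgr2, and the pericyte genes Kcnj8 and Abcc9 were too low to be tested. Of the 7 endothelial markers, Cldn5 had 0 counts in all 12 libraries, Tek had 0 in siNC and 4 in siEgr2, and Flt1, at 1.94 and 0.763 CPM, was called lower. Kdr, the endothelial marker at the highest level, averaged 25.6 and 28.2 CPM and was not called, and the list summed to 26.1 to 35.4 CPM in siNC and 28.2 to 38.03 CPM in siEgr2, with a median log2 fold change of 0.053. The part of these cell types in the changes of the Notch genes was not tested.

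Set against the astrocyte markers of the same library, a measure chosen after the values were seen, Notch2, Notch3 and Hes1 overlapped between the groups, and Notch1 did not. Most of that marker sum is Gfap. Notch2 stood at 7.25 to 8.77 CPM per 1000 CPM of astrocyte markers in siNC and at 6.38 to 7.71 in siEgr2, with medians of 7.62 and 7.54. For Notch3 the medians were 4.52 in siNC and 3.51 in siEgr2, with ranges of 3.87 to 4.97 and 3.34 to 4.03. These ranges overlapped only through siNC library 2, and the other siNC libraries lay at 4.33 or above. Hes1 stood at medians of 0.620 and 0.586 per 1000 CPM of astrocyte markers, and Lfng at 8.52 and 7.28. Hey1 went the other way on this scale, from a median of 6.44 in siNC to 7.97 in siEgr2. Notch1 did so without overlap, at 38.8 to 43.1 in siNC and 60.0 to 69.0 in siEgr2. Per 1000 CPM of pericyte and fibroblast markers, Notch3 stood at 31.96 to 67.8 in siNC and 26.8 to 35.7 in siEgr2, with medians of 51.9 and 31.5. Within that sum the collagen gene Col1a1, which was not called, averaged 336 CPM in siNC and 301 CPM in siEgr2. The pericyte genes Pdgfrb (49.3 and 33.5 CPM) and Rgs5 (7.73 and 4.49 CPM) were small parts of it. The ratio is therefore no measure of Notch3 against pericytes alone. Notch1 per 1000 CPM of precursor markers had medians of 116 and 94.7, and Dll3 of 13.1 and 11.8.

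**Figure D5:**
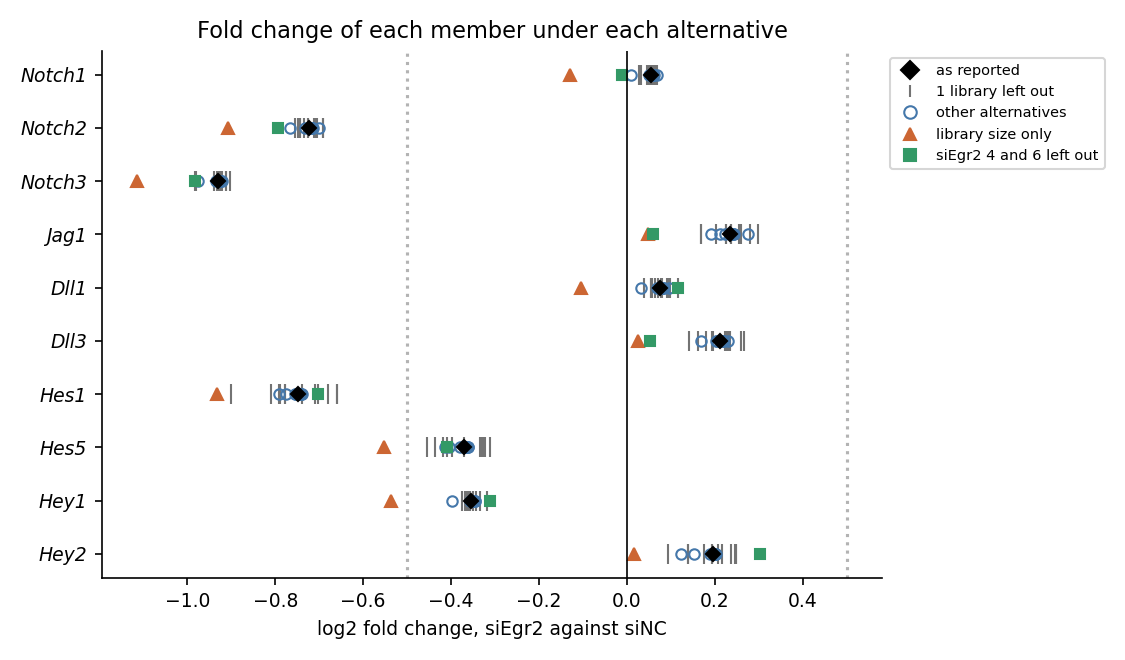
Log2 fold change of each Notch gene under every alternative, with the reported value as a diamond and dotted lines at the fold threshold of 0.5. Notch2 and Notch3 stay beyond -0.5 under all of them, while scaling by library size only (triangles) shifts all 10 genes downward and takes Notch1 and Dll1 below 0.

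The counting rules limit a few of these values. In GENCODE M21 the exons of Notch1 share 1068 bases with 0610009E02Rik, those of Notch3 488 bases with Gm17276, those of Hes5 433 bases with Gm20421 and those of Dll1 867 bases with A930024N18Rik, each on the opposite strand, and those of Notch2 541 bases with Gm42820 on the same strand. The neighbors in the table had few counts, with at most 155 for 0610009E02Rik, 28 for Gm17276, 29 for Gm20421 and 16 for Gm42820 in any library. Whether the counting used the strand is not given in the sources used here.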

How the data were processed

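RNA-seq was analyzed in 12 libraries of primary mouse OLs, 6 siNC and 6 siEgr2, mapped to their groups from the titles. The authors deposited raw counts per gene symbol, not normalized, from reads of 50 bases, and the submitters' processing notes name the build mm10, which is GRCm38. The aligner, counter, annotation and strand setting are not given in the sources used here. The 1 entry without a gene name held 0 counts and was left out. No library was a copy of another (chi-square per gene of 7.20 to 42.0 over 30 pairs, where sampling noise gives about 1).

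Counts were compared in R 4.3.3 with edgeR 4.0.16 (filterByExpr, TMM, robust quasi-likelihood test, no covariate) over 16600 genes, with Benjamini-Hochberg adjustment over all of them. Levels are CPM on the TMM scale. Intervals of 95% are unadjusted. Alternatives were RLE, upper-quartile and no scaling factors, DESeq2 1.42.0, limma-voom (limma 3.58.1), 2 other filters, a replicate block, thinning, structural RNA genes left out, each library left out in turn and no fold threshold. The design gives no batch. On simulated counts for 16600 genes with 200 changed, 156 were recovered and 1 call was false, with 74 of 100 at an absolute log2 fold change of 1 and 82 of 100 at 1.5. Lower depth limits genes with few counts.

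The 10 genes and the lists were chosen with earlier results of these data known. Named genes are the 10, Egr2, called pathway genes and, in each pathway list without a call, the tested gene of the highest level, and 1 gene of this rule is not reported here. The other pathway genes named were chosen after their values were seen. Marker genes are named as called or defining members of their lists. Lists held 8 astrocyte, 6 precursor, 8 oligodendrocyte, 8 microglia, 7 endothelial, 8 pericyte and fibroblast, 8 neuron and 6 ependymal markers. Coordinates and exon lengths are from GENCODE M21, and 8 of the 10 genes had a promoter window in RefSeq (GRCm38.p6).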

Additional observations from a re-analysis of the deposited data

Results flagged for a closer look

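Notch3 stood at 32.2 CPM in siNC library 2, while the other siNC libraries lay between 38.97 and 43.0 CPM, a gap of 0.628 of the whole range of the group against a critical value of 0.625 for 6 samples (Dixon's test). The library held 30499403 counts, within the range of its group. Among the 22 groups of 6 values examined in this way, for the 10 Notch genes and Egr2, 1 library stood apart, and chance gives 1.1.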

How the results depend on the processing

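Notch2 and Notch3 kept their direction and their call under all 23 alternatives, with log2 fold changes of -0.91 to -0.69 and of -1.11 to -0.90. Hes1 kept its call in 22 of the 23. Over the 10 Notch genes and Egr2, 245 of 253 values kept their sign and their call. Among these, the adjusted p in edgeR passed its threshold for Jag1 without siEgr2 library 1 (0.30, adjusted p = 0.0434) and for Hes5 without siNC library 3 (-0.45, adjusted p = 0.0232), short of the fold threshold. Scaling by library size only shifted the median of all genes from 0.0046 to -0.18. It reversed Notch1 to -0.13 (adjusted p = 0.0107 in edgeR, short of the fold threshold) and Dll1 to -0.10, called 5 Notch genes lower (Hes5 at -0.55 and Hey1 at -0.54 were added) in place of 3, called 6 other pathway genes lower, and called 237 of all genes higher and 1737 lower, so that 88.0% of calls were lower against 65.9%. Relative to that shift both Notch1 and Dll1 lay above the median. With no fold threshold, 2 pathway genes were higher and 6 lower, and 1423 of all genes were higher and 1877 lower. Pathway genes called lower numbered 4 with no filter on low counts (Dll4, Dtx4, Fbxw7 and Lfng), 2 after thinning, 3 without siEgr2 libraries 4 and 6, and 1 to 2 when each library was left out in turn, with 2 without siNC library 3 or 4 or siEgr2 library 4 or 6. Lfng was among them each time, and Dtx4 or Fbxw7 was the addition in those 4 fits. Leaving out siEgr2 libraries 4 and 6 together took Notch1 to -0.011 and Hes1 to -0.70 with an adjusted p of 0.0513 in edgeR, and brought Egr2 to a call at -0.73, as scaling by library size only did at -0.70. The cause of these changes was not tested.

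Libraries with the same number did not deviate together from their group means (correlations of -0.039 to 0.042), so the numbers do not pair them. With the replicate number as a block, 3 Notch genes were called lower, no call of the 10 genes or Egr2 changed, and 349 of all genes were called higher and 775 lower. Leaving out each library in turn kept 3 Notch genes lower. Of the genes not called, Notch1 went to 0.032 and 0.027 without siEgr2 library 4 or 6, Dll1 to 0.039 and 0.12 without siEgr2 library 3 or 4, and Dll3 to 0.14 without siEgr2 library 6. Depth limits Hes1 and Egr2 most, with as few as 16 and 30 counts in a siEgr2 library.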

Other observations

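The ratio of Dll3 to Dll1 was 0.973 to 1.31 in siNC and 0.944 to 1.69 in siEgr2, and that of Jag1 to Dll1 was 0.725 to 1.03 and 0.764 to 1.33, with overlap for both. The siEgr2 libraries with the highest values of both ratios were 4 and 6. The ratio of Hes5 to Hes1 was 1.72 to 3.75 in siNC and 1.79 to 6.19 in siEgr2, and the highest value came from siEgr2 library 5, which holds only 16 counts of Hes1.

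In the siNC group, libraries 3 and 6 were the lowest for both Hes5 (9.96 and 12.95 CPM) and Hey2 (7.96 and 7.97 CPM), and the highest for the ratio of Hey1 to Hey2 (7.02 and 6.90). They also had the highest Rn18s-rs5 shares of their group, 1.05% and 0.981%. These are values of 2 libraries with no explanation tested.

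The microglia markers Cx3cr1 and Aif1 had 0 counts in all siNC libraries, and Cx3cr1 had 4 counts in siEgr2 in all. Of the 8 microglia markers, 4 had enough counts, and of these 0 were called in edgeR, DESeq2 or limma-voom and 0 were past an unadjusted p of 0.05 in edgeR. The 8 neuron markers summed to 137 to 156 CPM in siNC and 118 to 130 CPM in siEgr2, and 1 of them, Stmn2, was called lower (-0.91), while of the others Tubb3 (-0.27) and Syt1 (0.31) passed the adjusted p in opposite directions. Of the 6 ependymal markers, 0 were called by any of the 3 tools and 1, Foxj1, passed the adjusted p at -0.48, while 2 were lower at an unadjusted p under 0.05.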
